A study of Mus musculus with 2 samples.

Results

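The mitochondrial ribosomal protein genes, named Mrpl for the large and Mrps for the small subunit, were examined in long-term hematopoietic stem cells (LT-HSCs) of 2-year-old mice with and without a deletion of p38α. Members were all probes other than controls whose gene name on the array begins with Mrpl or Mrps and a digit. The rule gave 77 genes, 48 Mrpl and 29 Mrps, of the 34646 gene names on the array, and these were read by 109 probes. The rule used names only and no measured value.

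The mitoribosome translates the proteins encoded by mitochondrial DNA (mtDNA), which are all subunits of the oxidative phosphorylation (OXPHOS) complexes. Its proteins are encoded in the nucleus, made in the cytosol and imported, whereas its ribosomal RNAs are transcribed from mtDNA. Some of its proteins have a counterpart in bacterial ribosomes and others occur only in mitochondria. LT-HSCs are mostly quiescent and are known to lean less on mitochondrial respiration than the progenitors they give rise to.

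RNA was labelled and hybridized to single-colour Agilent arrays, 1 array per genotype, both on the same slide. The WT array held cells of TAM-injected, age-matched p38α fl/fl mice that lacked Cre. The array labelled p38KO held cells of p38αΔ/Δ mice, which carried CAG-CreERT2 and p38α fl/fl and had received tamoxifen (TAM) at 50 to 60 weeks of age. The CAG promoter is active in most tissues, so the deletion was not limited to blood cells. All mice were C57BL/6J and 2 years old when their bone marrow was sorted for CD150+CD48-CD34-Flt3- cells within the lineage-negative, Sca-1+, c-Kit+ (LSK) fraction. The study's methods add CD41- to this gate, and the number of mice behind each array is not given in the sources used here. With 1 array per group there is no spread between mice and no test, and every difference below is one between 2 arrays.

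Mapk14, the gene of p38α, did not separate the arrays. Its brighter probe gave a log2 signal of 2.34 on the WT array and 2.31 on the array labelled p38KO, and its other probe gave 2.08 and 2.03. Whether these probes lie in the deleted part of the gene is not known here, so they do not check the label. The study reports a separate check, a genomic quantitative PCR of Mapk14 in peripheral blood cells at this age, with a partial reduction in p38αΔ/Δ mice. That check did not read the sorted LT-HSCs. A log2 signal is given throughout relative to the 75th percentile of the same array, and a difference is the array labelled p38KO minus WT, so that a negative value is lower on the array labelled p38KO. The signals of different probes cannot be set against each other as levels of different genes.

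The stem cell label was checked with marker genes, and several marker lists differed between the arrays. Of 18 HSC identity genes 17 were lower on the array labelled p38KO, with a summed linear signal of 193 on WT and 151 on the array labelled p38KO, in multiples of each array's 75th percentile. Myeloid genes summed to 219 and 299, with 9 of 13 measured genes higher, and to 37.4 and 56.6 without Itgam, which made up most of the sum. B cell genes summed to 3.94 and 19.1, with 7 of 7 measured higher, but to 2.81 and 3.88 without Igj, the plasma cell gene that carried most of the gap. Of the B cell genes, Ebf1, Igll1, Ms4a1 and Vpreb3 were not well above background on WT and Igll1 was not on the array labelled p38KO. T and NK cell genes summed to 19.8 and 24.6 (8 of 9 higher), with Cd3d, Cd3g and Cd8b1 not well above background on either array. Klrd1 was not on the array labelled p38KO. The 1 measured gene of this list that was lower had a difference of -4.43. Erythroid genes summed to 94.4 and 90.8 (7 of 10 higher), or to 24.6 and 34.7 without Car2, and cycling genes to 273 and 304 (13 of 18 higher). Megakaryocyte genes summed to 134 and 124 (6 of 10 measured lower), and endothelial and stromal genes to 6.87 and 6.76 (4 of 7 measured lower). The part of these lists in the differences below was not tested, and in sorted bulk cells fewer cells of a type and less RNA per cell cannot be told apart.

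Most mitochondrial ribosomal protein genes were slightly lower on the array labelled p38KO, and few differed by much. All 77 were well above background on both arrays. Of these 57 (74.0%) were lower, against 49.1% of all 24000 gene names measured on both arrays and 54.0% of 13689 protein-coding names. The other 20 were higher, against 50.9% and 46.0%. The median difference was -0.19, a level 1.14-fold lower, with quartiles of -0.40 and 0.00. The median of all gene names was 0.01 and that of protein-coding names -0.05.

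With all signal strengths pooled, differences of 1.5-fold were fewer among the members than on the array as a whole. Differences of 2-fold downward were about as frequent. Members at least 1.5-fold lower numbered 6 of 77 (7.79%), and the background was 12.5% of all gene names and 13.7% of protein-coding names. Only 1 member (1.30%) was at least 1.5-fold higher, where the backgrounds were 14.1% and 10.4%. At 2-fold, 3 members (3.90%) were lower, beside 4.62% of all and 4.96% of protein-coding names, and 1 was higher, beside 4.51% and 2.95%. The members' probes were brighter, with a median WT signal of 1.87 against -0.33 for all gene names. In the dimmest tertile of the members, 5 of 26 were lower by 1.5-fold, beside 2345 of 15793 names below the same upper bound. By 2-fold, 3 of 26 were lower beside 1007 of 15793, so both shares were larger among these members. Those names reached down to a mean signal of -4.61 and these members to -2.19, so the sets are not matched for signal. In the middle and brightest tertiles the 1.5-fold shares were smaller, 1 of 25 and 0 of 26, beside 334 of 3468 and 319 of 4739. The members were less spread than the whole, with a standard deviation of 0.37 over the 77 differences and 0.64 over all gene names.

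The error of a single spot was taken from 276 probes that the array carries several times. For a difference between 1 spot on each array the standard deviation was 0.14. It was 0.19, 0.10 and 0.09 for repeated probes split at the signal bounds between the dimmest, middle and brightest members. With 0.14 used for every gene, 31 members (40.3%) were lower by more than 2 standard deviations, beside 27.5% of all gene names. By the same bound 8 (10.4%) were higher, beside 30.7%. Another 20 members differed by less than 1 standard deviation, where the background was 21.1%. Probes of all gene names were dimmer, where the spot error is larger, so these backgrounds are not matched to the members by signal. This error comes from repeated spots within each array, so it covers neither the labelling and hybridization nor the mice. The plot of members ranked by difference shows how many lie within it.

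**Figure D1:**
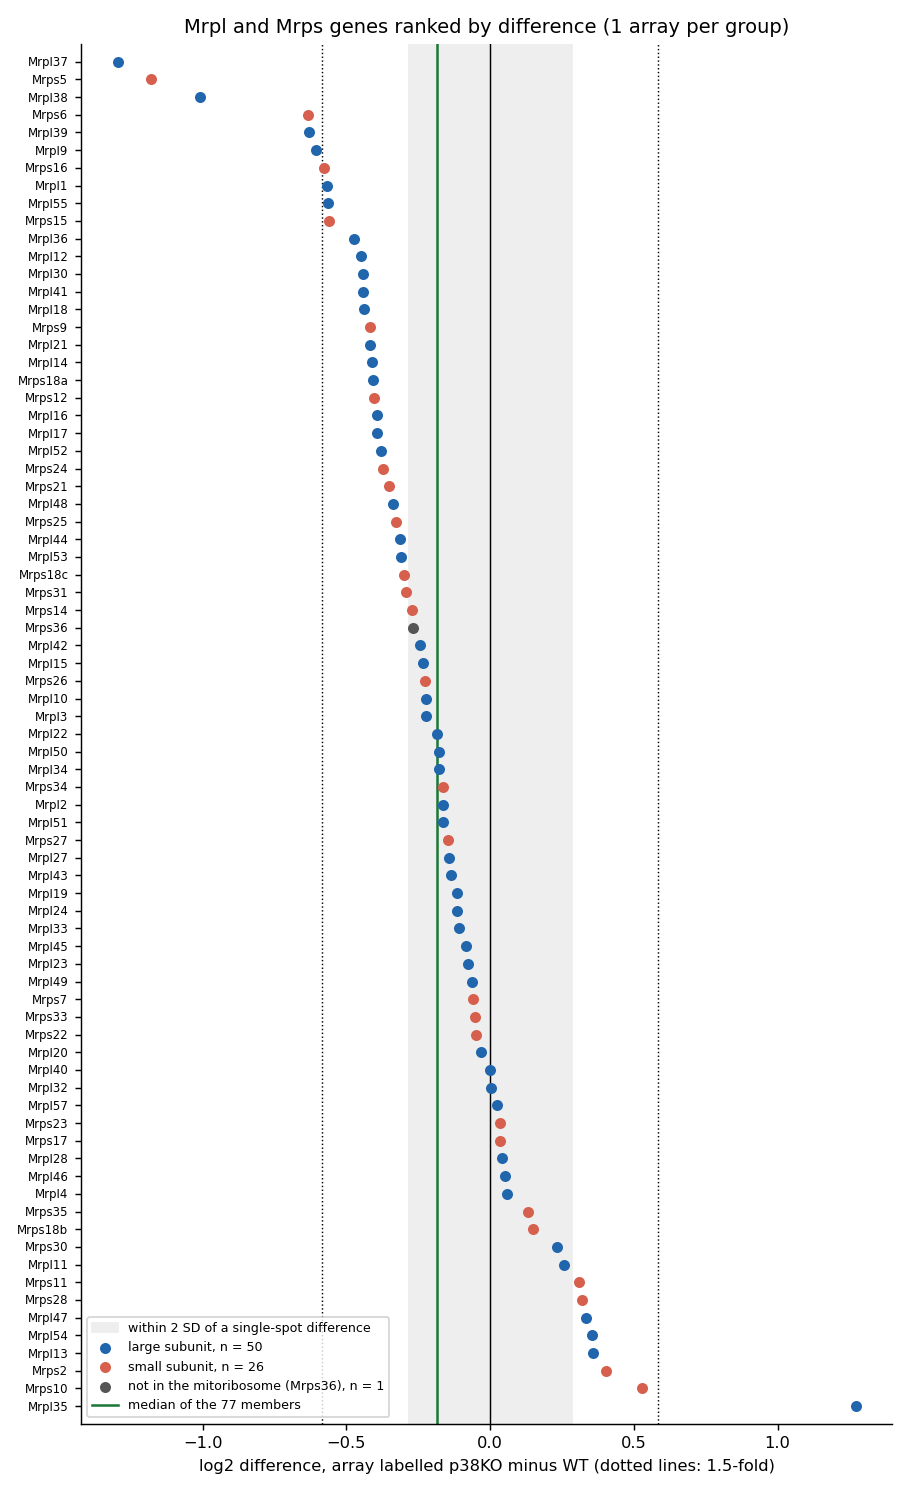
Each point is 1 of the 77 members, placed by its log2 difference (array labelled p38KO minus WT) and coloured by subunit. The grey band spans 2 standard deviations of a single-spot difference on each side of 0, with 0.14 used for every gene. The green line is the median of -0.19, and 57 points lie left of 0.

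At the low end, 3 members stood apart from the rest. Mrpl37, a large-subunit protein found only in mitochondria, had a log2 signal of 0.05 on WT and -1.25 on the array labelled p38KO, a difference of -1.29 (2.45-fold lower). Mrps5, a small-subunit protein with a bacterial counterpart, read 0.03 and -1.15, a difference of -1.18 (2.26-fold lower). Mrpl38, a mitochondria-specific protein of the large subunit, read -0.55 and -1.56, a difference of -1.01 (2.01-fold lower). These are the 3 members more than 2-fold lower, and each has 1 probe on the array.

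The probes of Mrpl37 and Mrps5 are shown because they carry the most negative differences and because each spans an exon junction, so that each reads spliced RNA. Both are 60 bases long, and on mm9 the Mrpl37 probe covers 1302 bases of chr4:106733238-106734539 on the minus strand and the Mrps5 probe 551 bases of chr2:127426599-127427149 on the plus strand. No base is singled out in them, so both are in lower case.
Mrpl37 probe: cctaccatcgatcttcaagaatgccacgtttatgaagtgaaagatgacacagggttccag
Mrps5 probe: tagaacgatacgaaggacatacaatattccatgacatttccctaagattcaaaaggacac
The brightest probes of 9 members in all span a junction. The Mrpl38 probe does not, and lies at chr11:115993268-115993327 on the minus strand of mm9.

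The next differences below 0 were smaller and close together. Mrps6, a small-subunit protein with a bacterial counterpart, read 1.58 on WT and 0.94 on the array labelled p38KO, a difference of -0.63. Mrpl39, which is mitochondria-specific, read 1.13 and 0.50, also a difference of -0.63. Mrpl9, a bacterial-type protein of the large subunit, read 0.38 and -0.23, a difference of -0.60. These complete the 6 members at least 1.5-fold lower. Mrps16 (-0.58) and Mrpl1 (-0.57), the protein of the stalk at the tRNA exit side, came next and were under 1.5-fold.

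Among the members that were higher, Mrpl35 stood alone. This bacterial-type protein of the large subunit read -1.89 on WT and -0.62 on the array labelled p38KO, a difference of 1.27 (2.41-fold higher). Its single probe is among the 5 dimmest of the members and lies at chr6:71765277-71765336 on the minus strand of mm9. The next was Mrps10, the member with the brightest probe, which read 6.29 and 6.82, a difference of 0.53. Then followed Mrps2 (0.40), Mrpl13 (0.36), Mrpl54 (0.35), Mrpl47 (0.33), Mrps28 (0.32) and Mrps11 (0.31), all above 2 standard deviations of a single spot over all repeated probes. With the 0.19 of dim probes, the dim members Mrpl13, Mrpl47 and Mrps11 lie within 2 standard deviations. The other probe of Mrps2, also well above background on both arrays, gave -0.02. Mrps2, Mrps10, Mrps11 and Mrps28 belong to the small subunit and the other 3 to the large.

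**Figure D2:**
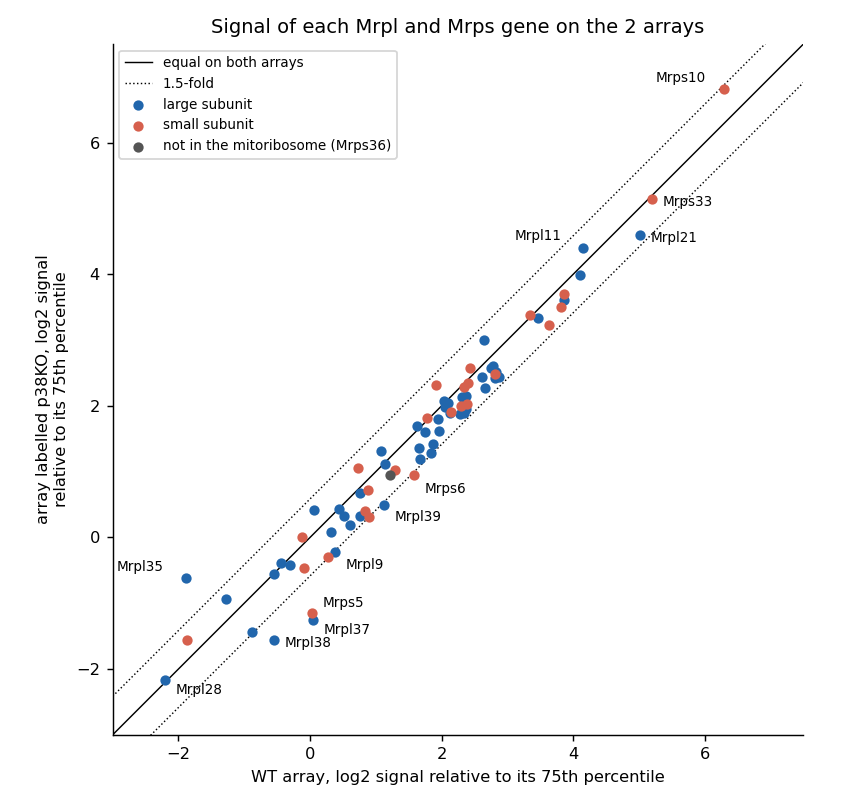
Each point is 1 member, with its log2 signal on the WT array on the x axis and on the array labelled p38KO on the y axis, both relative to the array's 75th percentile. The dotted lines mark a 1.5-fold difference, beyond which lie Mrpl37, Mrps5, Mrpl38, Mrps6, Mrpl39 and Mrpl9 below and Mrpl35 above.

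Both subunits showed the small downward difference. The 50 proteins of the large subunit had a median of -0.18, with 38 lower, and the 26 of the small subunit had a median of -0.20, with 18 lower. The Mrps name does not always mean the small subunit: Mrps30 and Mrps18a sit in the large subunit, and Mrps36 is now known as a component of the 2-oxoglutarate dehydrogenase complex. By name, the Mrpl genes had a median of -0.18 (37 of 48 lower) and the Mrps genes one of -0.23 (20 of 29 lower).

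Origin separated the members little. Members with a bacterial counterpart had a median of -0.22 (34 of 46 lower), and mitochondria-specific members one of -0.16 (22 of 30 lower). The widest gap was within the small subunit, where 16 bacterial-type proteins had a median of -0.33 and 10 mitochondria-specific ones a median of -0.10. The mitochondria-specific ones of the small subunit stayed between -0.33 (Mrps25) and 0.15 (Mrps18b), whereas the bacterial-type ones ran from -1.18 (Mrps5) to 0.53 (Mrps10). With 1 array per group none of these gaps was tested.

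Proteins of 1 functional part did not all go the same way. In the stalk that recruits translation factors, Mrpl12, which is also known to bind the mitochondrial RNA polymerase, read 1.87 on WT and 1.42 on the array labelled p38KO (-0.45). Mrpl10, which anchors Mrpl12, read 0.31 and 0.09 (-0.22). Mrpl11 at the base of the same stalk read 4.15 and 4.41 (0.26), so that 2 of the 3 stalk proteins were lower and 1 higher. Mrps12, a protein of the decoding centre, read 3.63 and 3.23 (-0.40). Mrpl45, which holds the ribosome to the inner membrane at the tunnel exit, read 0.75 and 0.67 (-0.08), within 1 standard deviation of a single spot.

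The Mrps18 genes encode 3 related proteins that occupy different places in the ribosome. Mrps18a, in the large subunit, read 0.60 on WT and 0.20 on the array labelled p38KO (-0.41). Mrps18c, which takes the place of the bacterial protein, read 3.81 and 3.51 (-0.30). Mrps18b, also in the small subunit, read 2.43 and 2.58 (0.15), and was thus the member of the trio that was not lower. Mrps30 was also higher (1.08 and 1.31, a difference of 0.23), and Mrps36 was lower (1.21 and 0.95, a difference of -0.27).

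The brightest members gave both directions as well. Mrps33, of the small subunit, read 5.19 on WT and 5.14 on the array labelled p38KO (-0.05), and Mrpl33 read 4.10 and 3.99 (-0.11). Mrpl21, like Mrpl33 a bacterial-type protein of the large subunit, read 5.01 and 4.59 (-0.42). At the dim end, Mrpl28 read -2.21 and -2.17 (0.04). The share of members that were lower was 65.4% of 26 in the dimmest tertile of the members, 76.0% of 25 in the middle and 80.8% of 26 in the brightest. It climbed with signal as it did for all gene names split at the same bounds, of which 44.9%, 54.0% and 59.4% were lower.

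The members' median was much the same at every signal strength, while its distance from that of all gene names narrowed as signal rose. The members had medians of -0.21, -0.23 and -0.17 in the dimmest, middle and brightest tertile. All gene names split at the same bounds had medians of 0.07, -0.04 and -0.10. Their outer ranges were wider, from a mean signal of -4.61 to 10.04, beside -2.19 to 6.55 for the members. The 3 members over 2-fold lower and the 1 over 2-fold higher all lay in the dimmest tertile. By the GC content of the probe, the medians were -0.26 for 34 members at or below 41.7%, -0.08 for 31 members between 43.3% and 45%, and -0.16 for 12 members at or above 46.7%. All gene names in the same GC ranges had medians of -0.02, 0.02 and 0.06.

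**Figure D3:**
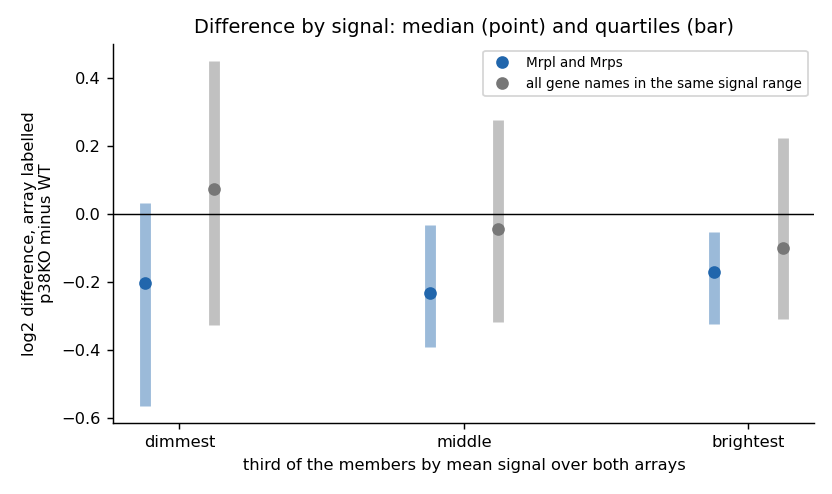
Median (point) and quartiles (bar) of the log2 difference for the members, in tertiles by mean signal over both arrays, and for all gene names. All gene names were split at the same bounds and reach further at both ends. The members' medians of -0.21, -0.23 and -0.17 lie below those of all gene names in each tertile.

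Second probes gave a weaker form of the same shift. Of the 77 members, 49 have 1 probe and 28 several, and 26 had at least 2 probes well above background on both arrays. In these 26 the brightest probe had a median of -0.14 with 19 lower, and the second brightest a median of -0.10 with 18 lower. Both probes had the same direction in 17 of 26 (65.4%), near the 62.1% of 7160 gene names with 2 such probes. The gap between the differences of the 2 probes had a median of 0.21 for members and 0.40 for those gene names. A gap of this size is as large as the median difference of the members.

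For 9 members the probes differed by more than 0.5 in their differences. Mrpl41, a mitochondria-specific protein of the large subunit, read 0.76 on WT and 0.32 on the array labelled p38KO at its brighter probe (-0.44), but 0.28 and 0.59 at its other probe (0.31). Mrpl9 gave -0.60 at the probe for its curated transcript and 0.35 at a dimmer probe for a predicted one. Mrps18b gave 0.15 and 0.24 at 2 probes that share 55 of their 60 bases, and -0.49 at another nearer the start of the gene. For these 3 genes, among others, the direction depends on the probe.

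The other probes that disagreed were of several kinds. Mrps14 gave -0.27 at its brightest probe and 0.35 at the next, and Mrpl4 gave 0.06 and -0.45 at probes of nearly equal signal. Mrpl20 gave -0.03 and, at a dim probe for a predicted transcript, 0.58, and the 4 probes of Mrpl47 ran from -0.15 to 0.55. Mrps25 was lower at both of its probes (-0.33 and -0.87). Mrpl39 gave -0.63 at its brightest probe, and its other probe was too dim to count on either array. The plot of separate probes shows these genes beside those whose probes lay close together, such as Mrpl23 and Mrpl49.

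**Figure D4:**
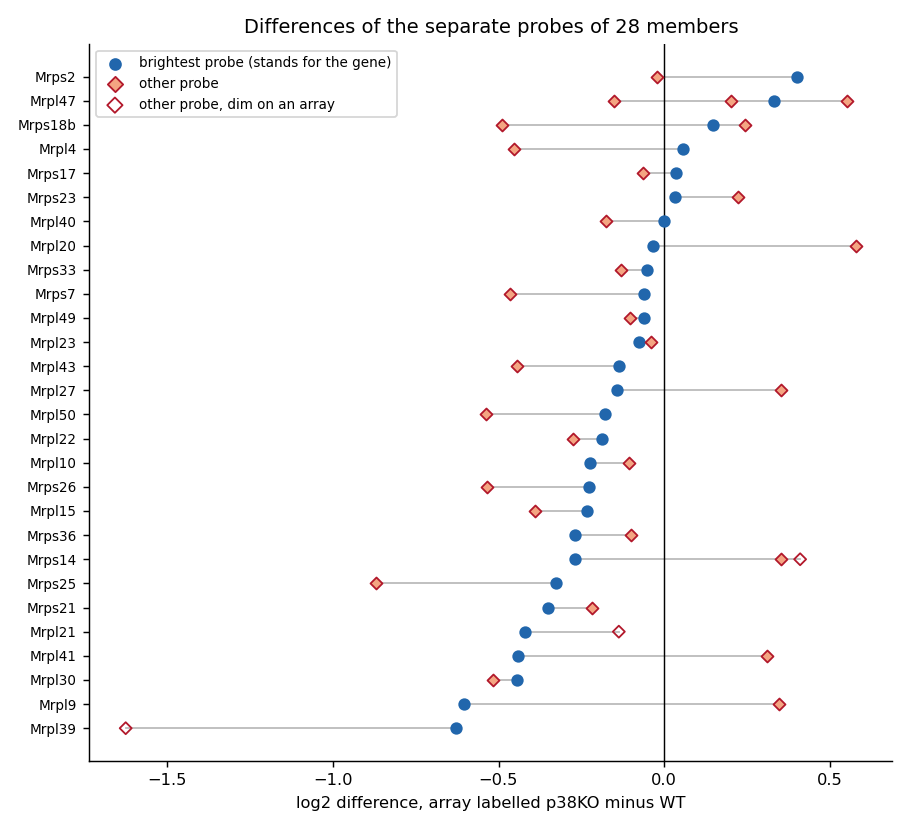
Log2 difference (array labelled p38KO minus WT) at every probe of the 28 members with several probes, with the brightest probe as a blue circle, other probes as diamonds, and open symbols for probes not well above background on an array. The widest gaps are those of Mrpl39 and Mrpl9, and 1 end of the Mrpl39 line is a dim probe.

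In 3 members the array repeats the same probe 10 times, which gives a direct view of spot error. Mrpl34 was lower (-0.18), with a standard deviation between spots of 0.06 on WT and 0.07 on the array labelled p38KO. Mrpl50 was lower by the same amount (-0.18; 0.05 and 0.04), and Mrps35 was higher (0.13; 0.12 and 0.11). A run of 20 bases or more shared with a probe of another name was found for the brightest probes of Mrpl27, Mrpl30, Mrps33 and Mrps36, so signal from another transcript is possible there.

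The promoters of the members were read because so many members shared a small difference. A RefSeq promoter of build GRCm38.p6, 250 bases before the start of transcription and 50 after, was given for 68 of the 77 genes. The words searched on both strands were GCATGCGC (the NRF1 type), CCGGAAG (the type bound by ETS factors such as GABP) and AAGATGGC (the YY1 type). The last of these begins with the 3 letters that end the word before it, and of the 3 members that hold both words, 0 hold them overlapping. NRF1, GABP and YY1 are known regulators of nuclear genes for mitochondrial proteins. The word CCGGAAG was found for 25 of 68 members (36.8%) and for 12.9% of 17492 protein-coding genes, AAGATGGC for 12 members (17.6%) and 3.57%, and GCATGCGC for 8 members (11.8%) and 3.94%. The shares were not particular to the members: CCGGAAG was found for 38.9% of 54 cytosolic ribosomal protein genes and 25.8% of 62 nuclear-encoded OXPHOS genes, and any of the 3 words for 53.7% and 46.8%.

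Members with and without these words differed little in their values. The 37 members with at least 1 of the words (54.4%, beside 18.7% of all) had a median difference of -0.22, and the 31 without any had one of -0.27. For CCGGAAG alone the medians were -0.22 with it and -0.24 without. Over all protein-coding genes the medians were -0.11 with any of the words and -0.03 without. They were -0.38 and -0.29 for nuclear-encoded OXPHOS genes, and -0.25 and -0.29 for cytosolic ribosomal protein genes. None of these gaps was tested. A word in this window is a description and not a binding site. Of the factors themselves, the array gave Gabpa -0.17, Gabpb1 -0.28, Yy1 -0.27 and Nrf1 0.50.

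Promoters of 4 members are shown, with the searched words in capitals. Mrps12 is shown because its promoter holds CCGGAAG and AAGATGGC (on the other strand, as GCCATCTT) and is shared with a divergent neighbour. Mrpl37, Mrpl35 and Mrps5 are shown because they had the largest differences. The windows are chr7:28741772-28742071, chr4:107066817-107067116 and chr6:71823735-71824034 on the minus strand and chr2:127587176-127587475 on the plus strand of GRCm38.p6.
Mrps12: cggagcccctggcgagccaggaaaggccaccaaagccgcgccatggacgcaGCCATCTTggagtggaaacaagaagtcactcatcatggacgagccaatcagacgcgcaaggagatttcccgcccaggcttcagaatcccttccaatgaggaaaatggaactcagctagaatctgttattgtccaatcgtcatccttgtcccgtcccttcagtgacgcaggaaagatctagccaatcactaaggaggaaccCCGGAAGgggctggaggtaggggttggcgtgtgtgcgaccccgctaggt
Mrpl37: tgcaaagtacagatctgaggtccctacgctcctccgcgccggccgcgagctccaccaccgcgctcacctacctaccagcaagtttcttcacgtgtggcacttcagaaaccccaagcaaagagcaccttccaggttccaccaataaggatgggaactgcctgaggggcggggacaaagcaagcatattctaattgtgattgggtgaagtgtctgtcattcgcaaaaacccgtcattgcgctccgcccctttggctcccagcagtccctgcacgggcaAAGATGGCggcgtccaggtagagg
Mrpl35: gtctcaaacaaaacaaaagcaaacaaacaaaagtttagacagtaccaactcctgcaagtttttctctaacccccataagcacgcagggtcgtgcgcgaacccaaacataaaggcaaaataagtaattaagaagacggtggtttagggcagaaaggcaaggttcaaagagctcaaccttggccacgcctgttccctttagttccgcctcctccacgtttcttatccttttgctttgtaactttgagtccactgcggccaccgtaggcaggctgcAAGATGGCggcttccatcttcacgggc
Mrps5: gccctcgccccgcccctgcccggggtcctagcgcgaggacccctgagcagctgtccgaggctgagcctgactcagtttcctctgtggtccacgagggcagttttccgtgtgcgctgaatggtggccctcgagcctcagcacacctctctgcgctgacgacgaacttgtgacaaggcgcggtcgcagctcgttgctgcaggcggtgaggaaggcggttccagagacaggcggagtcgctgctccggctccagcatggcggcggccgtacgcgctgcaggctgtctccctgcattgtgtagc
Mrpl37 and Mrpl35 both hold AAGATGGC just after the start of transcription, 26 and 23 bases into the transcript, and had differences of -1.29 and 1.27. Mrps5, at -1.18, holds none of the 3 words in this window.

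Some members start back to back with another gene. A divergent pair was defined as a minus-strand start and a plus-strand start up to 1000 bases apart, or overlapping by up to 250 bases. Among the 68 members with a promoter entry, 25 lay in 24 such pairs. Over all 17492 protein-coding genes with a promoter entry there were 792 pairs, and the share of those genes lying in a pair was not counted. Both genes were measured in 23 pairs and had the same direction in 11 of them (47.8%), beside 54.5% of 567 measured pairs over all genes. The 22 partners that are not members had a median difference of -0.03, with 13 lower, while the 25 members had a median of -0.16, with 18 lower. The 43 members that have a promoter entry and no such neighbour had a median of -0.27, with 35 lower.

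Some pairs join functions of the same organelle or of the other ribosome. Mrps12 (-0.40) starts 147 bases from Sars2 (-0.16), the mitochondrial seryl-tRNA synthetase. Mrpl47 (0.33) starts opposite Ndufb5 (-0.41), a subunit of complex I. Mrpl49 (-0.06) starts opposite Fau (-0.28), which encodes a protein of the cytosolic small subunit. Mrpl46 (0.05) and Mrps11 (0.31) are the pair made of 2 members, with starts 42 bases apart, and both were higher. Mrpl37 (-1.29) starts 128 bases from Cyb5rl, which was higher (0.62).

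Among other genes of mitochondrial translation, assembly factors had a median like that of the members and the rest lay nearer 0. Of 6 mitoribosomal proteins that carry other names, 3 were lower and 3 higher, with a median of -0.02. They ran from Dap3 (-0.47), a GTP-binding protein of the small subunit, to Ptcd3 (0.56), a small-subunit protein near the mRNA channel. Factors for assembly of the ribosome and modification of its RNA had a median of -0.17, with 18 of 24 measured lower. Mettl17 (-1.97) and Mpv17l2 (-1.34), both needed to build the ribosome, were the lowest, and Ybey (0.63), an RNA endonuclease, and Eral1 (0.55), a chaperone of the small-subunit RNA, the highest.

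Translation factors had a median of -0.08 (10 of 17 lower), from the initiation factor Mtif3 (-0.47) and Taco1 (-0.42), an activator of Cox1 translation, to the recycling factor Mrrf (0.57) and Lrpprc (0.73), which stabilizes mitochondrial mRNA. Aminoacyl-tRNA synthetases and related enzymes had a median of -0.04 (11 of 19 lower), from Qrsl1 (-1.0) and Wars2 (-0.90) to Cars2 (0.80) and Aars2 (0.98). Genes of mtDNA transcription and replication had a median of 0.04 (5 of 11 lower) and regulators of mitochondrial biogenesis one of 0.09 (4 of 8 lower). The general background for lower values was 49.1%.

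Cytosolic ribosomal proteins and nuclear-encoded OXPHOS subunits were lower in larger shares than the members. The 73 cytosolic genes had a median of -0.30, with 68 lower (93.2%), and the 75 OXPHOS genes also had a median of -0.30, with 66 lower (88.0%). Their standard deviations, 0.26 and 0.26, were below the 0.37 of all 77 members, but their probes were brighter, with median WT signals of 6.44 and 3.28 against 1.87. In the brightest tertile of the members the standard deviation was 0.24. Past 2-fold, lower or higher, were 0 of 73 cytosolic and 0 of 75 OXPHOS genes, beside 4 of the 77 members, all in the dimmest tertile. Across these groups every difference comes from the same 2 arrays.

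The genes read from mtDNA, which the mitoribosome translates, went the other way. Of 13 protein-coding mtDNA genes 12 were higher on the array labelled p38KO, with a median of 0.35 (1.28-fold higher). ND1, a core subunit of complex I, read 5.68 on WT and 6.26 on the array labelled p38KO (0.58), and COX1, the catalytic subunit of complex IV, read 5.77 and 5.90 (0.13). The exception was ND3 (-0.19), whose probe the array design places on chromosome 1 and not on mtDNA. The members and the mtDNA genes thus differed in the direction of their medians, -0.19 against 0.35, and the plot of gene groups sets them side by side.

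**Figure D5:**
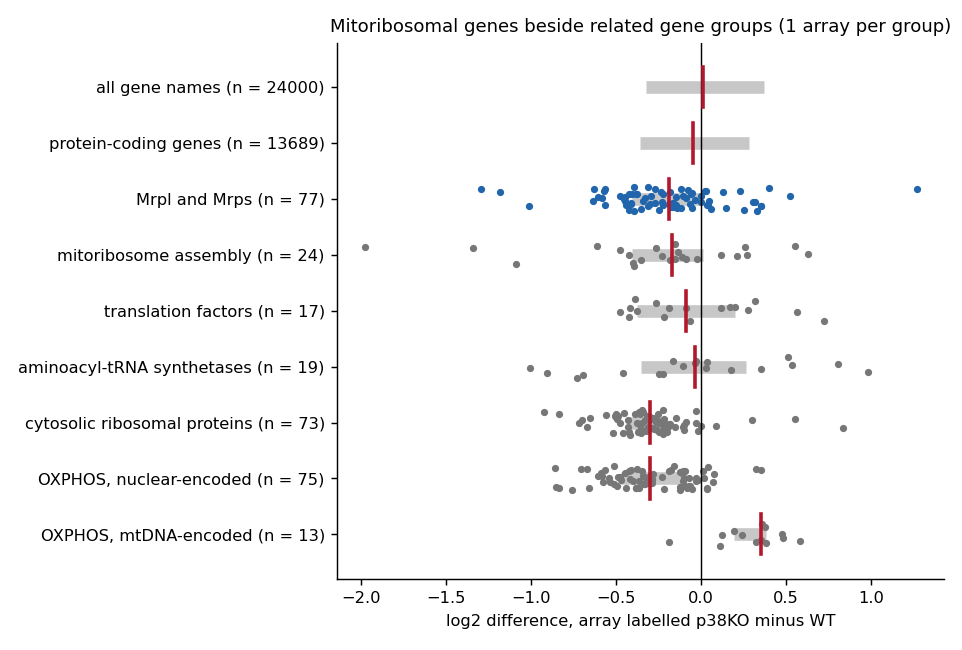
Log2 differences (array labelled p38KO minus WT) of the members and of related gene groups, with 1 point per gene, a red line at the group median and a grey bar over the quartiles. For all gene names and protein-coding genes only the median and quartiles are drawn. The members' median of -0.19 lies between 0.01 for all gene names and -0.30 for cytosolic ribosomal proteins, and the mtDNA-encoded genes lie to the right of 0 except ND3.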

How the data were processed

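RNA of sorted LT-HSCs was measured on 2 single-colour Agilent arrays, 1 WT and 1 p38KO, grouped by the sample labels. The deposited scanner files give each spot's intensity after background correction by Agilent Feature Extraction 11.5.1.1, with no normalization between arrays, and place probes on build mm9. In a further deposited table, the log2 values are each array's log2 signal less a constant (7.16 and 6.84).

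Control spots and flagged spots were left out, spots of a probe were averaged, and the 75th percentile of each array was subtracted on the log2 scale. A gene was read at its brightest probe by the mean of both arrays, and gene names are those of the array design. Differences count a gene only where it was well above background on both arrays, as 67.9% and 69.0% of probes were on the single arrays. Saturated spots numbered 0. The number of arrays, 1 per group, limits the precision, and no test was made.

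Named members were the 8 lowest and 8 highest differences, the 5 brightest and dimmest, those whose probes differed by over 0.5, and genes fixed for their place in the ribosome. For other lists the 2 lowest and highest were named, and other genes were chosen after their values were seen. Members and lists were chosen with earlier results of these data known. Alternatives were quantile normalization, median centring, loess (span 0.3), normexp with an offset of 50, the authors' values, other probe choices, no filter, flagged spots kept, and members without Mrps36. The calculations were tested on simulated data. Promoters came from RefSeq tables of GRCm38.p6, and all 77 names were found in its gene table. Calculations used R 4.3.3 with limma 3.58.1, and Python 3.11.15 with matplotlib 3.10.9, statsmodels 0.14.6, pandas 2.3.3 and numpy 2.4.6.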

Additional observations from a re-analysis of the deposited data

How the results depend on the processing

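The members' median stayed between -0.22 and -0.14 under the 10 alternatives run, and the number of members lower between 54 and 62 of 77, or 56 of 76 without Mrps36. Members at least 1.5-fold lower numbered 3 with normexp background correction in place of 6, and members at least 1.5-fold higher numbered 2 with quantile normalization in place of 1. With the dimmest detected probe in place of the brightest, Mrpl9 was at 0.35 instead of -0.60. Of 35 named members 24 kept 1 direction under all 8 alternatives run on single genes, and 261 of 280 of their values kept it. Normexp, which adds an offset and so shrinks dim probes, gave -0.68 for Mrpl37, -0.69 for Mrps5, -0.44 for Mrpl38 and 0.68 for Mrpl35. The medians of cytosolic ribosomal proteins and OXPHOS subunits stayed below 0 under every alternative run on them. The median of the mtDNA-encoded genes, an alternative set chosen after seeing the data, stayed between 0.24 and 0.36. No scaling moved the median of all genes by more than 0.1. No replicate could be left out, and no paired analysis was possible because each group has 1 array. The results cannot separate genotype from mouse, sort or hybridization.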
